A study of Mus musculus with 6 samples.

Results

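Levels of 9 genes of the hemidesmosome and of laminin-332 (Itga3, Itga6, Itgb4, Col17a1, Dst, Plec, Lama3, Lamb3 and Cd151) were taken by symbol from a count table of 24067 genes. All 9 were present and passed the filter on low counts, as did 15903 genes in all. Hemidesmosomes are the rivets that hold basal keratinocytes to the basement membrane. Integrin α6β4 (Itga6, Itgb4) and collagen XVII (Col17a1) cross the membrane, plectin (Plec) and the epithelial form of dystonin (Dst, also called BPAG1 or BP230) tie them to keratin filaments inside the cell, and the tetraspanin CD151 (Cd151) associates with the laminin-binding integrins. Outside the cell, the integrins bind laminin-332, a trimer that includes the α3 and β3 chains (Lama3, Lamb3) and which integrin α3β1 (Itga3, Itgb1) also binds. In carcinomas of stratified epithelia these genes are studied because the adhesion complex is rebuilt when keratinocytes migrate and invade.

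The count table held RNA-seq counts of 6 tongues with tumours from C57BL/6 mice, of which 3 carry the label wild type (WT) and 3 the label knockout (KO) for HuR. The Elavl1 gene encodes HuR, which binds AU-rich elements in transcripts. Mice of both groups had received the oral carcinogen 4-nitroquinoline 1-oxide for 16 weeks, were kept for 12 more weeks and were about 34 weeks old. How HuR was deleted, and in which cells, is not given in the sources used here. The comparison asks how the tongues labelled KO differ from the WT-labelled ones.

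Some facts about the 6 libraries bear on every value below. Total counts ran from 29543352 to 51520707, and the 9 genes together held 0.418% to 0.505% of them. Elavl1 was not lower in the KO-labelled libraries (67.6 ± 9.81 CPM, which are counts scaled to a common library size with TMM factors, against 55.1 ± 6.91 CPM in the WT-labelled ones, SD, n = 3, log2 fold change 0.29 ± 0.15, edgeR adjusted p = 0.180), so the groups are named by their labels. Values of replicates are always given in the order 1, 2 and 3. Xist and the Y-linked Ddx3y showed that KO replicates 2 and 3 were female (Xist at 1271 and 1104 CPM) and that KO replicate 1 and all 3 WT-labelled libraries were male (Xist at 0.625 to 2.50 CPM), so sex and label are partly confounded. Markers of the cell types also differed. The summed level of 5 basal keratinocyte markers (Krt5, Krt14, Krt15, Trp63, Cdh3) was 10726 to 12577 CPM in the KO-labelled libraries and 4477 to 9667 CPM in the WT-labelled ones. That of 12 skeletal muscle markers was 41762 to 58851 CPM and 74592 to 137311 CPM, and no marker of either list was at 0. In such bulk tissue fewer cells of a type and less RNA per cell cannot be told apart. WT replicate 1 had the highest basal sum of its group (9667 CPM, against 5732 and 4477 CPM in WT replicates 2 and 3) and the lowest muscle sum (74592 CPM), which placed it nearest to the KO-labelled libraries.

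The genes went in both directions. Lama3, Lamb3, Itga3, Itga6, Itgb4 and Col17a1 had higher means in the KO-labelled libraries, by 1.36 to 1.97-fold, and Dst, Plec and Cd151 had lower means, at 0.586 to 0.755 of the level in the WT-labelled ones. None of the 9 passed an adjusted p under 0.05 in edgeR's quasi-likelihood test, where 4.81% of all genes tested were called higher and 7.43% lower. Without adjustment, edgeR gave p under 0.05 for 3 of the 9 higher (Itga6, Itga3, Lama3) and 2 lower (Dst, Cd151), against 18.2% and 20.3% of all genes. DESeq2 called the same 5 genes at an adjusted p under 0.05, 3 higher and 2 lower, where it called 12.1% and 15.9% of all genes, and limma-voom called Dst and Cd151 lower (8.02% of all genes) and 0 of the 9 higher (6.17%). Groups did not overlap for 2 of the 9 with the KO-labelled libraries above (Itga6, Lama3) and for 3 with them below (Dst, Plec, Cd151), against 22.0% and 22.1% of all genes. The median log2 fold change of the 9 was 0.50, and that of all genes tested was 0.02.

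**Figure D1:**
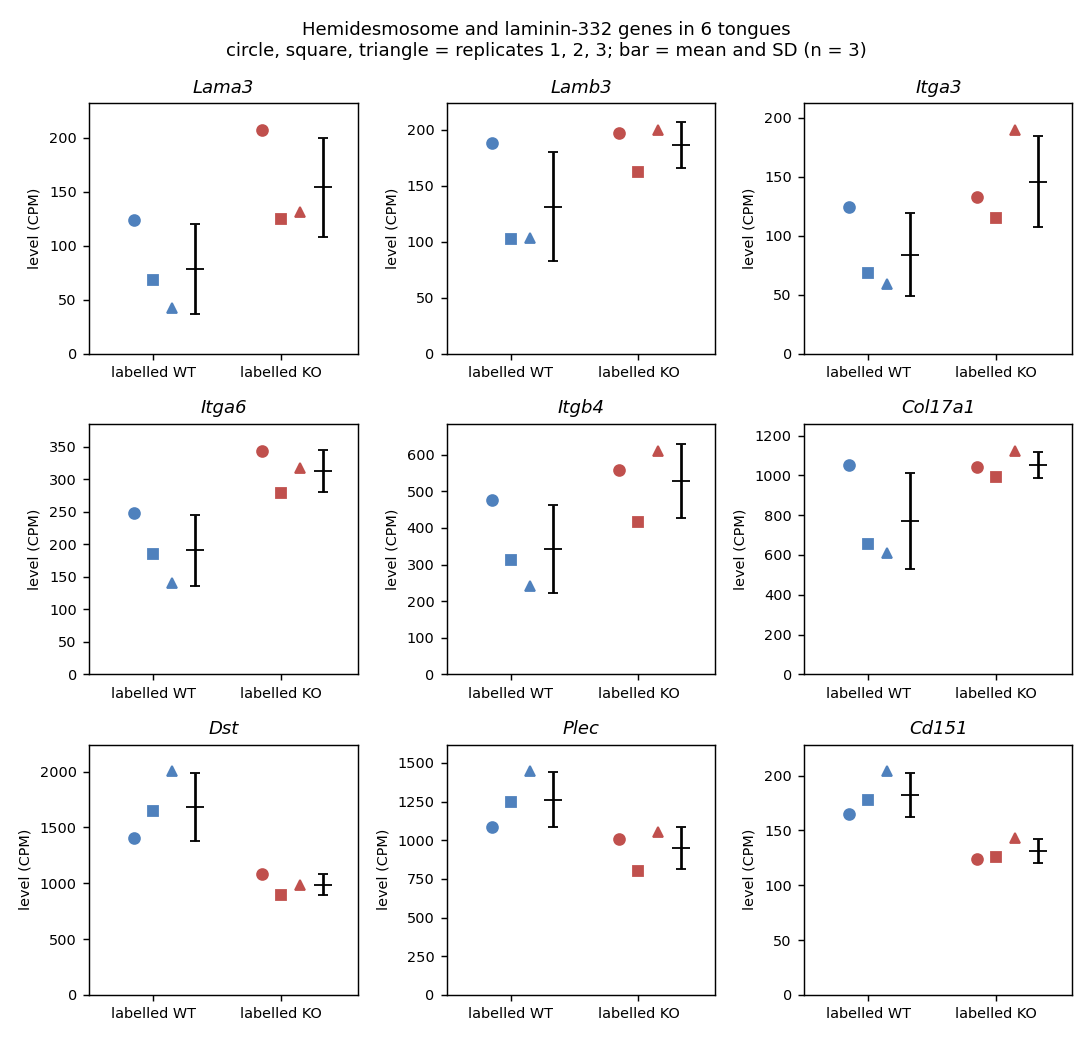
Level (CPM, linear axes from 0) of each of the 9 genes in the 6 libraries, with blue points for the WT-labelled ones and red points for those labelled KO, shapes for the replicate and a black bar for the mean and SD of 3 libraries. WT replicate 1 (blue circle) is the blue point nearest to the red mean in each panel, for example at 1050.0 CPM of Col17a1 where the red points span 991 to 1124 CPM.

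Positions in parentheses are those of the whole gene in GRCm38. Of the ligand's chains, Lama3 (chr18:12333417-12583013), which carries the integrin-binding globular domains of laminin-332, stood at 207, 125 and 131 CPM in the KO-labelled libraries and at 124, 68.4 and 42.6 CPM in the WT-labelled ones. KO replicate 1 was high, and KO replicate 2 exceeded WT replicate 1 only narrowly, so the groups were just separate. The log2 fold change was 0.98 ± 0.37 (SE; 95% interval 0.12 to 1.84, edgeR adjusted p = 0.0994), the largest of the 9 in size. Without KO replicate 1 it was 0.71. Without WT replicate 1 it was 1.49, with an edgeR adjusted p of 0.0104, and without WT replicate 3 it was 0.68. Lamb3 (chr1:193294353-193343878), the β3 chain, was at 197, 162 and 199.6 CPM in the KO-labelled libraries and at 188, 103 and 104 CPM in the WT-labelled ones. WT replicate 1 lay within the range of the KO-labelled libraries, and the log2 fold change was 0.50 ± 0.25 (-0.06 to 1.07, edgeR adjusted p = 0.167). The log2 ratio of Lamb3 to Lama3 was 0.30 ± 0.35 under the KO label and 0.82 ± 0.40 under the WT label (SD, n = 3), and the groups overlapped. KO minus WT was -0.52 (exact permutation p = 0.3, 2-sided, and 0.338 after Benjamini-Hochberg adjustment over 9 ratios). The smallest p that 3 against 3 libraries allow is 0.1. Per kilobase of annotated exon sequence, Lamb3 was above Lama3 in all 6 libraries, at 15.5 to 30.2 CPM per kb against 3.97 to 19.3. The length used for Lama3 (10745 bases) counts the exons of both its coding transcripts. This order depends on that length, since a shorter form would raise the level per length.

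Of the receptors, Itga6 (chr2:71786886-71858427), the α6 subunit, stood at 344, 279 and 317 CPM in the KO-labelled libraries and at 249, 184 and 140.1 CPM in the WT-labelled ones. The groups did not overlap. Its log2 fold change was 0.71 ± 0.22 (0.21 to 1.22, edgeR adjusted p = 0.0630, DESeq2 adjusted p = 0.0126). Itgb4 (chr11:115974725-116008412), the β4 subunit, whose long cytoplasmic tail binds plectin, was at 558, 417 and 611 CPM against 476, 313 and 240.2 CPM, where WT replicate 1 exceeded KO replicate 2. Its log2 fold change was 0.62 ± 0.27 (-0.01 to 1.26, edgeR adjusted p = 0.134). The ratio of these subunits of 1 receptor differed by less than its SD in either group, with log2 Itgb4 to Itga6 at 0.74 ± 0.19 in the KO-labelled libraries and 0.83 ± 0.10 in the WT-labelled ones (SD, n = 3; KO minus WT -0.08, exact permutation p = 0.5).

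Itga3 (chr11:95044475-95076844), the α3 subunit, was at 133, 115 and 189 CPM in the KO-labelled libraries and at 124, 68.0 and 59.4 CPM in the WT-labelled ones. WT replicate 1 lay above KO replicate 2, and the log2 fold change was 0.80 ± 0.30 (0.10 to 1.49, edgeR adjusted p = 0.0969). Its partner Itgb1, the β1 subunit, is shared with many other integrins and expressed in most cell types, and it stood at 301 ± 42.2 against 344 ± 8.75 CPM (-0.19 ± 0.16, edgeR adjusted p = 0.386). The log2 ratio of Itga3 to Itgb1 was -1.07 ± 0.31 in the KO-labelled libraries and -2.11 ± 0.60 in the WT-labelled ones, without overlap (KO minus WT 1.04, exact permutation p = 0.1, 0.129 adjusted).

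Cd151 (chr7:141467362-141471481), which modulates adhesion through the laminin-binding integrins, had the smallest standard error of the 9 (0.13). It was at 124, 126 and 144 CPM in the KO-labelled libraries and at 165, 178 and 204 CPM in the WT-labelled ones. All 3 KO-labelled libraries were lower, with a log2 fold change of -0.47 ± 0.13 (-0.78 to -0.16, edgeR adjusted p = 0.0543, DESeq2 adjusted p = 0.0116). This difference had the opposite sign to those of the integrin α subunits that Cd151 accompanies. Counts come from whole tongue, where summed muscle and endothelium markers were also lower under the KO label. This contrast and the next ratio were therefore not measured within keratinocytes, and the part of other cells was not tested. The log2 ratio of Itga6 to Cd151 was 1.25 ± 0.19 and 0.04 ± 0.57 in the groups labelled KO and WT, without overlap (KO minus WT 1.22, exact permutation p = 0.1, 0.129 adjusted). Both genes were already separate in opposite directions, so the separation of their ratio was bound to follow.

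Collagen XVII, the product of Col17a1, is a transmembrane collagen and an autoantigen of bullous pemphigoid. Col17a1 (chr19:47646341-47692042) was at 1041, 991 and 1124 CPM in the KO-labelled libraries and at 1050.0, 655 and 611 CPM in the WT-labelled ones. WT replicate 1 lay inside the narrow range of the KO-labelled libraries, and WT replicates 2 and 3 lay far below it. The log2 fold change was 0.45 ± 0.25 (-0.12 to 1.01, edgeR adjusted p = 0.210). Per kilobase of exons it was the most abundant of the 9 in every library (101.7 to 187 CPM per kb).

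The plaque proteins went the other way. Dst (chr1:33907888-34308662) was at 1079, 892 and 988 CPM in the KO-labelled libraries and at 1402, 1646 and 2002 CPM in the WT-labelled ones. Every WT-labelled library was above every KO-labelled one. Its log2 fold change was -0.77 ± 0.22 (-1.27 to -0.27, edgeR adjusted p = 0.0528, DESeq2 adjusted p = 4.2e-04). Plec (chr15:76170974-76231378) was at 1005, 799 and 1053 CPM and at 1089, 1249 and 1445 CPM, so that KO replicate 3 and WT replicate 1 were close. Its log2 fold change was -0.41 ± 0.21 (-0.89 to 0.08, edgeR adjusted p = 0.188). Plectin and dystonin are related cytolinkers, and neither is confined to epithelium, since both have forms in muscle and nerve. The log2 ratio of Plec to Dst was -0.06 ± 0.13 in the KO-labelled libraries and -0.41 ± 0.05 in the WT-labelled ones (KO minus WT 0.35, no overlap, exact permutation p = 0.1, 0.129 adjusted). The ratios of Itgb4 to Dst (KO minus WT 1.42), of Col17a1 to Dst (1.25) and of Itgb4 to Plec (1.07) did not overlap either, each with the same p values. Each of these last ratios sets a higher gene over a lower gene. Its positive sign therefore follows from the fold changes above and is no further result.

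A gene-level count of Dst adds up transcripts that differ in start and protein. In GENCODE M21 (GRCm38) the gene had 14 coding transcripts, and RefSeq gave a window for 2 starts. The transcripts starting near 34011595 on chromosome 1 encode proteins of 5379 to 7406 codons, and those starting near 34160260, inside the gene, encode proteins of 2639 to 5175 codons. The epithelial form is the short one, which lacks the actin-binding domain of the neuronal and muscle forms. These counts do not separate the forms. The windows around both starts (250 bases before to 50 after, from RefSeq, GRCm38.p6, 5′ to 3′) are shown because reads of the gene may come from either, and those of Col17a1 and Cd151 because these genes went in opposite directions. Capitals mark 3 motifs searched on both strands. The first is the GC box, GGGCGG, a common element of promoters without a TATA box that binds Sp1 family factors. Another is the TATA box, TATAAA, which places the start of transcription in a minority of promoters. The last, TGANTCA, takes any base at N and is a loose form of the AP-1 motif, a frequent element of keratinocyte genes.
Dst, upstream start, chr1:34011345-34011644, plus strand: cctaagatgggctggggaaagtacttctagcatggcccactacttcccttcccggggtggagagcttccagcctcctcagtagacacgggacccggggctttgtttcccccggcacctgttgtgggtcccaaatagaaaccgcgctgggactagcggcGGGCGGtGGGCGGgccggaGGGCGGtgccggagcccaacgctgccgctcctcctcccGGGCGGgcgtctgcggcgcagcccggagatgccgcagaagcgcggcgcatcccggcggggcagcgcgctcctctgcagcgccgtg
Dst, internal start, chr1:34160010-34160309, plus strand: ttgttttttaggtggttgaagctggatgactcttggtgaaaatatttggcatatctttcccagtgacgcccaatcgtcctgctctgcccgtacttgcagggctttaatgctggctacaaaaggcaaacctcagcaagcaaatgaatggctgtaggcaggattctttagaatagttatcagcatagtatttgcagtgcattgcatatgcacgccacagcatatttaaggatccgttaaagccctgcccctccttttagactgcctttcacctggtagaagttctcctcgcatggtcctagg
Col17a1, chr19:47691993-47692292, minus strand: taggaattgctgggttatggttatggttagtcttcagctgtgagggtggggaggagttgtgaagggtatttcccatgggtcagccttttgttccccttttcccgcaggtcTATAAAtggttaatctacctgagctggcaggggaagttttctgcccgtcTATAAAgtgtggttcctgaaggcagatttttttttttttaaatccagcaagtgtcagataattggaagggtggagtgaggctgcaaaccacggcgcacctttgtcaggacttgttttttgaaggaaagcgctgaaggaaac
Cd151, chr7:141467112-141467411, plus strand: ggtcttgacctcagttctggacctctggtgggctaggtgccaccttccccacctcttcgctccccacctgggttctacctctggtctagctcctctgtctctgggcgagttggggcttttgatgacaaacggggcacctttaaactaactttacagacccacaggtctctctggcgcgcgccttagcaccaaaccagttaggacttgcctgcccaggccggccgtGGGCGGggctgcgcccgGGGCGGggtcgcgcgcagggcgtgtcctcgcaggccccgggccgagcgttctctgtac

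The upstream Dst window held 4 GC boxes and was 70.3% G or C. The internal window held none of these motifs and was 46.0% G or C. Col17a1 held 2 matches to the TATA box, beginning at bases -140 and -91 from the start, and no GC box. The Cd151 window shown held 2 GC boxes, and a second window of Cd151, not shown, held none. Of 32851 such windows of all genes, 35.7% held a GC box, 13.6% a TATA box and 7.81% the loose pattern TGANTCA. Windows were given for 5 of the 9 genes (9 windows, of which the 2 of Lamb3 overlap). The source of windows had no entry for Itga6, Itgb4, Plec or Lama3. Among the 9 windows TGANTCA occurred in 1, as TGAATCA at the second start of Itga3. These matches describe letters only.

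HuR recognises AU-rich elements, so the pentamer AUUUA was counted in the 3′ UTR of the transcript with the longest coding sequence and a 3′ UTR. Dst had 6 in 1058 bases, Itga6 4 in 756 bases, Col17a1 2 in 882 bases, Itga3 1 in 1134 bases and Plec 1 in 1196 bases. Itgb4, Lama3, Lamb3 and Cd151 had 0, in UTRs of 312, 350, 368 and 776 bases. So 5 of the 9 held the pentamer, as did 64.8% of the 14393 genes tested that had such a UTR, whose median length was 940 bases. Per kilobase of UTR, Dst had 5.67, Itga6 5.29 and Col17a1 2.27, against a median of 1.14 over those 14393 genes. Itga3 (0.882), Plec (0.836) and the genes with 0 were below that median. The 5 genes with the pentamer included both Dst and Plec, which were lower, and Itga6, Itga3 and Col17a1, which were higher, in the KO-labelled libraries. For Dst the UTR was that of a long transcript from the upstream start (7406 codons). UTRs of the shorter forms from the internal start were not counted.

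Reads of overlapping genes could enter the counts. A gene on the opposite strand overlapped 7.66% of the exon bases of Itgb4 (B230344G16Rik) and 7.04% of those of Cd151 (Gm10575), and Dst, Plec and Lama3 had overlaps of 1.11% to 2.52% of their exon bases. Levels of different genes can be compared only per length of exon. Means in the KO-labelled libraries ran from Col17a1 (175 ± 11.2 CPM per kb, SD, n = 3) through Itgb4 (75.3 ± 14.3), Plec (52.6 ± 7.45), Cd151 (47.9 ± 3.89), Itga6 (34.7 ± 3.64), Lamb3 (28.2 ± 3.14), Itga3 (25.5 ± 6.79) and Dst (24.0 ± 2.26) to Lama3 (14.4 ± 4.26). Within 1 SD of their means, the neighbours Plec and Cd151 overlapped in that order, as did each neighbouring pair from Itga6 down to Dst. In the WT-labelled libraries the order was Col17a1 (128 ± 40.2 CPM per kb), Plec (69.6 ± 9.86), Cd151 (66.4 ± 7.29), Itgb4 (48.9 ± 17.2), Dst (40.9 ± 7.33), Itga6 (21.2 ± 6.04), Lamb3 (19.9 ± 7.42), Itga3 (14.7 ± 6.14) and Lama3 (7.29 ± 3.87). There each neighbouring pair from Plec down to Dst, and each from Itga6 down to Lama3, overlapped within 1 SD. The exon lengths of Dst (41155 bases) and Lama3 (10745 bases) count the exons of all their forms. Their levels per length are understated wherever a short form is expressed, and their places in both orders depend on this.

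Hemidesmosomes are made by basal cells, so each gene was set against the mean log2 CPM of the 5 basal markers. None of the 5 passed the edgeR test itself, with Krt14 at 1.23 ± 0.38 (edgeR adjusted p = 0.0651), Trp63 at 0.82 ± 0.32, Cdh3 at 0.84 ± 0.34, Krt5 at 0.64 ± 0.33 and Krt15 at 0.32 ± 0.19 on the log2 scale (3 of 5 higher at an unadjusted p under 0.05, DESeq2 called 2 higher). Relative to these markers the differences of all 6 higher genes, of which Col17a1 is given last, were smaller in size. KO minus WT was -0.01 for Itga3, -0.11 for Itga6, -0.19 for Itgb4, -0.30 for Lamb3 and 0.22 for Lama3 on the log2 scale, and the groups overlapped for all 5 (exact permutation p = 0.2 to 1 over 9 genes, 0.36 to 1 after Benjamini-Hochberg adjustment). The sign of this difference for Itga3 and Lama3 changed with the library left out. Col17a1 had log2 values of 0.11, -0.02 and 0.07 relative to the markers in the KO-labelled libraries and 0.29, 0.30 and 0.66 in the WT-labelled ones, a difference of opposite sign to that of its CPM (-0.37, exact permutation p = 0.1, 0.225 adjusted).

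The basal markers were higher under the KO label, which lowers every difference on this scale. Dst, Plec and Cd151, already lower in CPM, were therefore bound to be further apart here. Dst was at 0.16, -0.17 and -0.12 in the KO-labelled libraries and at 0.71, 1.63 and 2.38 in the WT-labelled ones, a difference of -1.61. The differences were -1.26 for Plec and -1.32 for Cd151 (each without overlap, exact permutation p = 0.1, 0.225 adjusted). In the KO-labelled libraries the 3 genes varied little relative to the basal markers, with SDs of 0.18, 0.20 and 0.04 for Dst, Plec and Cd151. In the WT-labelled ones the SDs were 0.84, 0.79 and 0.73, and WT replicate 3, which had the highest muscle and lowest basal sums, was the highest for each.

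**Figure D2:**
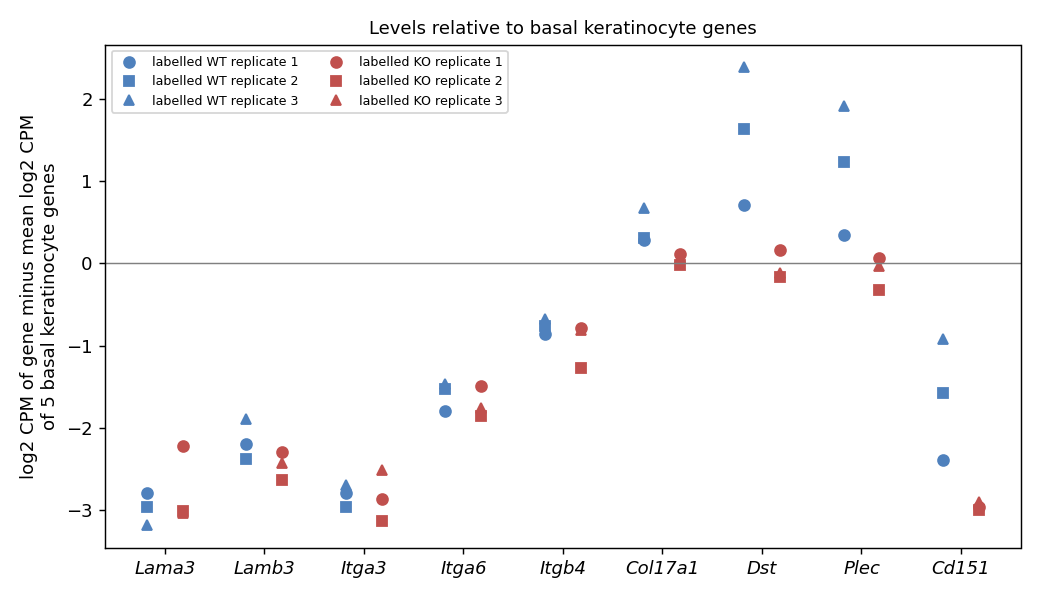
Log2 CPM of each gene minus the mean log2 CPM of 5 basal keratinocyte genes (Krt5, Krt14, Krt15, Trp63, Cdh3), for each library labelled WT (blue) and KO (red), with shapes for the replicate. The points of the laminin chains and integrins overlap between groups, while those of Dst, Plec and Cd151 spread upwards in the WT-labelled libraries, to 2.38 for Dst in WT replicate 3.

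The edgeR model was also fitted with a tissue mean as a second term. With the basal keratinocyte mean, log2 fold changes were between -0.11 and 0.17 for the 6 genes that had been higher, -0.38 ± 0.26 for Dst, -0.27 ± 0.18 for Cd151 and -0.12 ± 0.28 for Plec. With the mean of the 12 muscle markers, they were 0.38 ± 0.50 for Itga3, between -0.29 and 0.14 for the other 5 of those genes, -0.44 ± 0.25 for Dst, -0.14 ± 0.16 for Cd151 and -0.04 ± 0.24 for Plec. edgeR called 0 of the 9 and 0 of all genes in either model. No other tool was run with these terms. Both tissue means separated the labels completely, in mean log2 CPM. The basal mean was 9.91 to 10.07 under the KO label and 8.59 to 9.75 under the WT label. The muscle mean was 10.9 to 11.5 and 11.7 to 12.6. These fits therefore tell label and tissue mean apart poorly. With sex as a term, which leaves only KO replicate 1 to set against the male libraries labelled WT, edgeR again called 0 genes. The log2 fold changes there kept their direction for all 9, from 1.40 ± 0.47 for Lama3 to -0.64 ± 0.36 for Dst. The part of tissue makeup and sex in the values of the 9 genes was not tested.

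**Figure D3:**
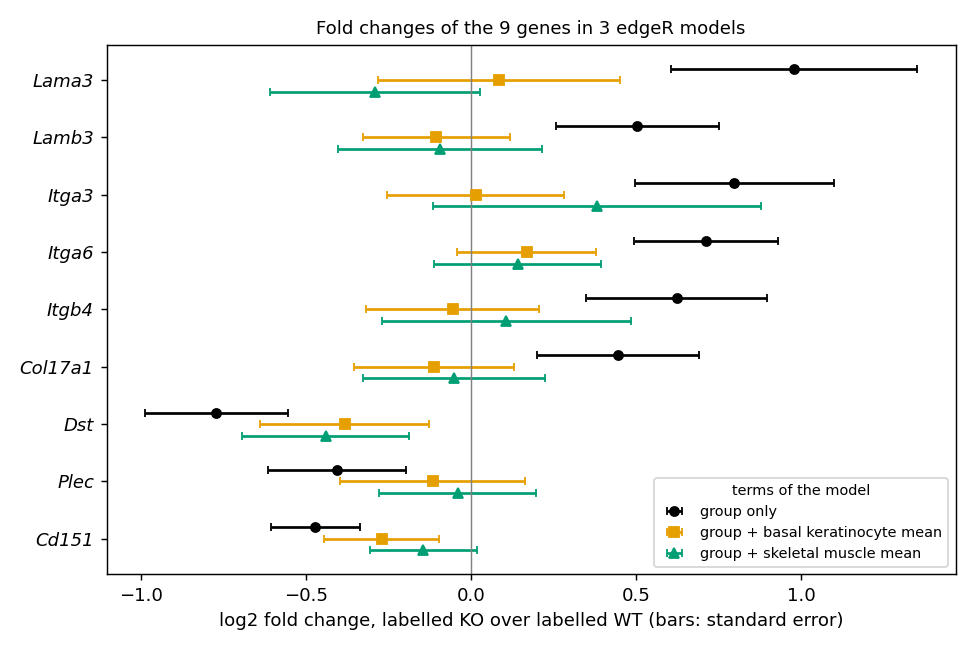
Log2 fold change, labelled KO over labelled WT, of the 9 genes in edgeR models with group as the only term (black), with the basal keratinocyte mean (orange) or with the skeletal muscle mean (green), and bars for the standard error. The values with group alone run from -0.77 to 0.98, and those of the 6 higher genes move to between -0.11 and 0.17 with the basal mean.

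Which libraries were kept decided the calls. Without WT replicate 1, edgeR called 6 of the 9 higher (17.9% of all genes) and Dst and Cd151 lower (18.1%), with Lamb3 at 0.87 (edgeR adjusted p = 0.00504), Itga3 at 1.21, Col17a1 at 0.75 and Itgb4 at 0.95 on the log2 scale. Leaving out any other library left 0 of the 9 called. Without adjustment, p was under 0.05 for 4 of the 9 when KO replicate 1 was dropped (26.2% of all genes), 6 for KO replicate 2 (26.7%), 4 for KO replicate 3 (33.8%), 3 for WT replicate 2 (24.8%) and 3 for WT replicate 3 (28.1%). Few genes of the whole table passed with adjustment in those fits. The share called higher was 0.0251% when KO replicate 1 was dropped, 0.306% when KO replicate 3 was dropped, 1.81% when WT replicate 3 was dropped and 0% in the others. The share called lower was 0.0376%, 0.0188% and 2.69% in these fits, 0.00624% when WT replicate 2 was dropped and 0% when KO replicate 2 was dropped. On KO replicates 1 and 2 with WT replicates 2 and 3, edgeR called 6 of the 9 higher (14.9% of all genes) and 2 lower (18.1%). The authors' deposited tables also differed by the libraries they hold. In the authors' deposited table of all 6 libraries, 5 of the 9 had an adjusted p under 0.05 (28.7% of all genes with one), with Dst at a log2 value of -0.75 (KO over WT) and Lama3 at 0.82. In the authors' deposited table with KO replicates 1 and 2 and WT replicates 2 and 3, all 9 did (35.7% of all genes), Lama3 at 1.43 and Plec at -0.59 among them. In the authors' deposited table with KO replicates 1 and 2 and WT replicates 1 and 3, 0 of the 9 did (9.57% of all genes), and Dst was nearest at 0.0567.

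Other basement membrane genes were set beside the 9. Of 17 of them edgeR called 3 lower and 0 higher (10 and 2 at an unadjusted p under 0.05, 9 and 1 by DESeq2), with a median log2 fold change of -0.52 where that of all genes was 0.02. The 3 were nidogen 1, Nid1 (-0.92 ± 0.20, edgeR adjusted p = 0.0365), which links laminin to collagen IV, Frem2 (-1.43 ± 0.33), and perlecan, Hspg2 (-0.67 ± 0.16). Summed markers of fibroblasts (932 to 1281 CPM under the KO label, 1458 to 1753 CPM under the WT label) and endothelium (243 to 295 CPM and 349 to 488 CPM) were lower in the same libraries, and their part in these values was not tested. Col7a1, the anchoring fibril collagen which keratinocytes and fibroblasts make, stood at 374 ± 15.5 against 231 ± 97.2 CPM (0.70 ± 0.27, edgeR adjusted p = 0.106), in the direction of Col17a1, Lama3 and Lamb3. Of 3 other laminin α chains (Lama1, Lama2, Lama4), edgeR called 1 lower. Lama2, the chain of muscle and nerve basement membranes, fell from 67.4 ± 31.2 to 25.5 ± 1.35 CPM (-1.40 ± 0.29, edgeR adjusted p = 0.0354), with the lower muscle marker sum of the same libraries.

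Of 15 genes of cell-matrix adhesion edgeR called 1 higher and 2 lower, with a median of -0.02. The tetraspanin Cd9 rose from 268 ± 36.4 to 411 ± 10.6 CPM (0.62 ± 0.16, edgeR adjusted p = 0.0446), where the related Cd151 was lower. Kindlin-2, Fermt2, an activator of integrins in many tissues, fell (-1.01 ± 0.20, edgeR adjusted p = 0.0337), and so did Itgb6 (-0.92 ± 0.20). Kindlin-1, Fermt1, its epithelial counterpart, stood at 0.81 ± 0.27 (edgeR adjusted p = 0.0761). Of 9 proteases that act on laminin-332 or collagen XVII edgeR called 0 (2 higher at an unadjusted p under 0.05 and the same number by DESeq2, 0 lower by either), with Mmp9, the gelatinase B gene, at 2.06 ± 0.62 and highest in KO replicate 1 (13.4 ± 11.8 against 3.18 ± 1.39 CPM, SD, n = 3), and the urokinase gene Plau at 0.85 ± 0.30.

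Among genes with a mean of at least 1 CPM, those whose centred log2 profile over the 6 libraries lay nearest to Itgb4 included Bub1, Slc39a10, Nsl1 and Gls2 (root mean square distance 0.0813 to 0.101 over 13450 genes compared). Of the other 8 genes here, Itga6 was at 0.13, Lamb3 at 0.15, Itga3 at 0.16, Col17a1 at 0.17 and Lama3 at 0.35 from Itgb4, and Plec, Cd151 and Dst were at 0.67 to 0.84. Nearest to Dst were Gpr146 (0.0349), Katnal1, Ssh2, Man2a2 and Cacna2d3 (0.0512 to 0.0633), with Cd151 at 0.190 and Plec at 0.195. The profiles share depth, tissue makeup and the 2 labels, so nearness over 6 libraries is a description.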

How the data were processed

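RNA of 6 tongues was made into Illumina TruSeq libraries, per the labels' protocols. The deposited tables (1 with 6 libraries, 2 with 4 of them) hold whole-number counts of reads for each gene, deposited without normalisation. Beside them, per the file headers, stand the authors' DESeq2 values: a mean normalised signal, a log2 fold change with its error (WT over KO, sign turned here), a Wald statistic (a score) and a p-value. HTSeq, DESeq2, hg19 and mm10 are named in the submitters' processing notes. Aligner, annotation and strandedness were not given in the sources used here, so reads of overlapping antisense genes cannot be told apart. Coordinates are RefSeq GRCm38.p6, matched by gene identifier.

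Counts were analysed with edgeR 4.0.16 (TMM, filterByExpr with at least 10 counts, robust quasi-likelihood fit, group as the only term) in R 4.3.3, with Benjamini-Hochberg adjustment over 15903 genes. Standard errors are the log2 fold change over the root of F, and intervals are at 95%. Log2 CPM used a prior count of 2. At 1 CPM a library has 25.6 to 53.0 counts. DESeq2 1.42.0 and limma 3.58.1 were alternatives, with those named in the closing section. Ratios were compared by 2-sided exact permutation tests. The labels do not say how replicates arose, so p-values cover only the variation among these 6 samples, which may be partly technical.

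The 9 genes and all lists were chosen with earlier results of these data known. Named genes are the 9, their partners Itgb1 and Col7a1, the basal markers, up to 4 per list with the smallest p, and the 5 nearest to Itgb4 and to Dst, leaving out unnamed gene models. Same-numbered libraries were not shown to be pairs. Some genes that this rule selects are not reported here.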

Additional observations from a re-analysis of the deposited data

How the results depend on the processing

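Over all genes edgeR called 765 genes higher and 1181 lower under the KO label. DESeq2 called 1881 and 2468, and 3 and 2 of the 9 genes. limma-voom called 0 and 2 of the 9. With replicate number as a block, edgeR called 1705 and 2112 genes, and 2 and 2 of the 9 (Itga6 and Lama3 higher, Dst and Cd151 lower). Same-numbered libraries did not deviate together in every pair (correlations 0.12, -0.16 and 0.19), so the numbers are not taken as pairs. Calls were 0 and 0 over all genes with the basal keratinocyte mean, the skeletal muscle mean or, added after the data were seen, sex as a covariate. With the libraries of the smaller tables they were 0 and 0 (with WT replicates 1 and 3), and 2386 and 2900, with 6 and 2 of the 9 (with WT replicates 2 and 3). Leaving out 1 library gave 0 to 2906 higher and 0 to 2938 lower genes, and 0 to 6 higher and 0 to 2 lower of the 9, the upper ends without WT replicate 1. DESeq2 size factors in edgeR and no filter left 0 of the 9 called.

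Signs turned under some settings. With the basal mean as a covariate Itgb4 was at -0.0557, Col17a1 at -0.11 and Lamb3 at -0.11, and with the muscle mean Col17a1 was at -0.0524, Lama3 at -0.29 and Lamb3 at -0.0938, the cause of which was not tested. Relative to basal keratinocyte genes Itga3 was at 0.0708 with a pan-epithelial reference and between -0.17 and 0.14 with 1 library left out, and Lama3 between -0.0447 and 0.36. The other 7 genes kept their sign there, as did the 9 ratios between partner genes. At 1 CPM a library has 25.6 to 53.0 counts, and what part depth has in the spread between libraries was not tested.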
